A study of Mus musculus with 12 samples.

Results

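The genes described here are 10 genes of prostaglandin and leukotriene synthesis in mouse bone-marrow-derived macrophages: Pla2g4a, Ptgs1, Ptgs2, Ptges, Ptges2, Ptges3, Hpgds, Alox5, Alox5ap and Ltc4s. They were taken by exact symbol from a table of 24346 genes, and all 10 were found there and passed the filter on low values, among 10311 genes tested. The macrophages came from wild-type bone marrow cultured over 7 days in M-CSF, a macrophage growth factor, and 10% serum. There were 4 groups with 3 libraries each. In the Tm_LPS group tunicamycin at 5 ug/ml was added 3 h before lipopolysaccharide (LPS) at 1 ng/ml, which was left for 3 h. The Tm group had tunicamycin alone at the same dose, the LPS group had LPS alone at the same dose and time, and the Control group had neither agent. Tunicamycin stops N-linked glycosylation of new proteins and thereby causes endoplasmic reticulum (ER) stress, and LPS, from the outer membrane of Gram-negative bacteria, activates macrophages through TLR4. The study's title asks how ER stress affects the inflammatory response. The exposure time of the Tm group, whether tunicamycin stayed on during LPS, and the strain, sex and age of the mice are not stated in the labels. Nor is it said whether replicates were separate mice or cultures, so p-values measure only the spread between these libraries.

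Eicosanoid synthesis starts when a cytosolic phospholipase frees arachidonic acid from membrane phospholipids. Cyclooxygenases turn it into prostaglandin H2, from which terminal synthases make prostaglandin E2, prostaglandin D2 and other prostanoids, while 5-lipoxygenase and its partner proteins turn it into leukotrienes. Macrophages are a main source of both classes, and the inducible cyclooxygenase is a textbook target of LPS.

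The promoters of 3 of the genes are printed because their transcripts gave the clearest contrasts: Ptgs2 and Ptges were both higher with LPS, the LPS effect on Ptges passed the test for a difference with tunicamycin while that on Ptgs2 did not, and Hpgds was lower with tunicamycin. Each sequence runs 5′ to 3′ from 250 bases before to 50 bases after the RefSeq start, on build GRCm38.p6 (mm10). These are chr1:150099781-150100080 on the plus strand for Ptgs2, chr2:30903248-30903547 on the minus strand for Ptges and chr6:65144681-65144980 on the minus strand for Hpgds. Capitals mark matches to the motifs searched.
Ptgs2: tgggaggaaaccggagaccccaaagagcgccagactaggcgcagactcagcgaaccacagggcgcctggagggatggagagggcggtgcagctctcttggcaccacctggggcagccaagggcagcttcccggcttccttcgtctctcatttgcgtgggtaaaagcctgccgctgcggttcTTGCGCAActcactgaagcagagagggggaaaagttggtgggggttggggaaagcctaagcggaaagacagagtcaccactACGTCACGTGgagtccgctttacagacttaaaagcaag
Ptges: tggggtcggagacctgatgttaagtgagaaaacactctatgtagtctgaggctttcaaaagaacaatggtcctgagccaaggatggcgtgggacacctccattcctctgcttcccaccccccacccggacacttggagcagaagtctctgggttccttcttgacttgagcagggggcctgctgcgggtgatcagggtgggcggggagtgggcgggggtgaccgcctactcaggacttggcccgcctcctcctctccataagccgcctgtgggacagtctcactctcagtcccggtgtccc
Hpgds: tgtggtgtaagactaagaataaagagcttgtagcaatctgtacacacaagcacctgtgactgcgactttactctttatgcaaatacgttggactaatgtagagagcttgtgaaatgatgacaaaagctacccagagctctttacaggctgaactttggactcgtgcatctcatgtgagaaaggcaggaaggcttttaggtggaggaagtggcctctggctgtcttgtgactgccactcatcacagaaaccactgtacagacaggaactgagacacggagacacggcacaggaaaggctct
The search on both strands covered TTGCGCAA (C/EBP), TGACGTCA (CRE), TGACGT (the shorter CRE form), TGANTCA (AP-1), TGATGNAAN (C/EBP-ATF), CACGTG (E-box), TATAAA, and the NF-kB and ERSE motifs by name. The Ptgs2 window held TTGCGCAA starting at position -69, which occurs in 0.183% of 32851 RefSeq promoter windows of the same length. It also held the TGACGT element on the minus strand at position 13 and the E-box at position 17, with the start as position 1; they occur in 7.51% and 7.15% of windows and share bases of the run ACGTCACGTG. The Ptges and Hpgds windows held none of the letters searched, which says nothing about binding by any factor. GC content was 59.3% for Ptgs2, 60.0% for Ptges and 46.7% for Hpgds. Of all 10 genes, 9 had a RefSeq window, and the other matches were an E-box in Ptges2 at -77, an NF-kB match in Ptges3 at -87 and TATAAA on the minus strand at -200 in 1 of 2 Pla2g4a windows.

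The values are FPKM, fragment numbers divided by transcript length and a measure of library size. Levels can thus be set side by side between genes and libraries, though some calls between libraries depended on the normalization, as given below. Median-of-ratios factors were 1.013 to 1.0193, so the libraries were already level, by a step that is not stated. Median-of-ratios scaling as another setting could therefore change little. Read depth was unknown, the summed FPKM was 561108 to 685010 per library, and 9507 to 9741 genes had at least 1 FPKM. Hspa5, which encodes the ER chaperone BiP, averaged 13530 ± 1726 FPKM in Tm_LPS, 9594 ± 2056 in Tm, 1198 ± 76.4 in LPS and 841 ± 73.2 in Control libraries. Tnf, a cytokine gene, averaged 1048 ± 112.5, 6.10 ± 0.537, 743 ± 62.4 and 2.94 ± 1.02 FPKM in the same order of groups, so both agents were seen in the libraries labelled with them. Means are given with the SD (n = 3) and log2 differences with the SE of limma on log2(FPKM + 1), a scale that understates the change of low genes. All 8 macrophage markers were tested and their summed FPKM was 14240 to 22980 in Tm_LPS, 18460 to 22010 in Tm, 17150 to 22230 in LPS and 14280 to 18860 in Control libraries. In bulk RNA, fewer cells of a type and less RNA per cell cannot be told apart.

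With LPS alone, 3 of the 10 genes passed at an adjusted p under 0.05, where 18.4% of all tested genes passed. The genes that passed were Ptgs2 and Ptges, which were higher, and Ptgs1, which was lower. With tunicamycin alone, 7 passed, where 34.5% of all genes did. Pla2g4a and Ptges rose, while Ptgs1, Hpgds, Alox5, Alox5ap and Ltc4s fell. The median log2 difference of the 10 genes was -0.44 in Tm against Control, beside 0.03 over all tested genes. In LPS against Control these medians were 0.07 and 0.00. The shares passing in 1 direction over all tested genes were 17.9% higher and 16.6% lower with tunicamycin, and 10.5% higher and 7.86% lower with LPS.

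Against LPS alone, cells with both agents had 4 of the 10 genes past the threshold, with Pla2g4a higher and Ptges, Hpgds and Alox5ap lower, where 28.9% of all genes passed (13.8% higher and 15.1% lower). Against Control, Tm_LPS had 6 past it, with Pla2g4a, Ptgs2 and Ptges higher and Ptgs1, Hpgds and Alox5ap lower, where 40.8% passed (20.7% higher and 20.2% lower). Against Tm, only Ptgs2 and Ptges passed, both higher, where 15.7% did (8.69% higher). Of the genes passing there, 55.4% were higher, against 44.9% with quantile normalization. Between the single agents, Tm against LPS, 8 passed, where 37.1% of all genes did (17.5% higher and 19.6% lower). Pla2g4a was the single gene higher in Tm, and Ptgs2, Ptges, Ptges3, Hpgds, Alox5, Alox5ap and Ltc4s were lower; without LPS replicate 1 the count was 5. In the interaction, the LPS effect with tunicamycin less the LPS effect without it, Ptges alone of the 10 genes passed, with a negative difference, where 3.37% of all genes passed and 1.96% were negative. The 95% confidence intervals of the other 9 genes reached from -0.890 (Ptgs2) to 1.344 (Alox5), so differences of that size in their LPS effects were not resolved.

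**Figure D1:**
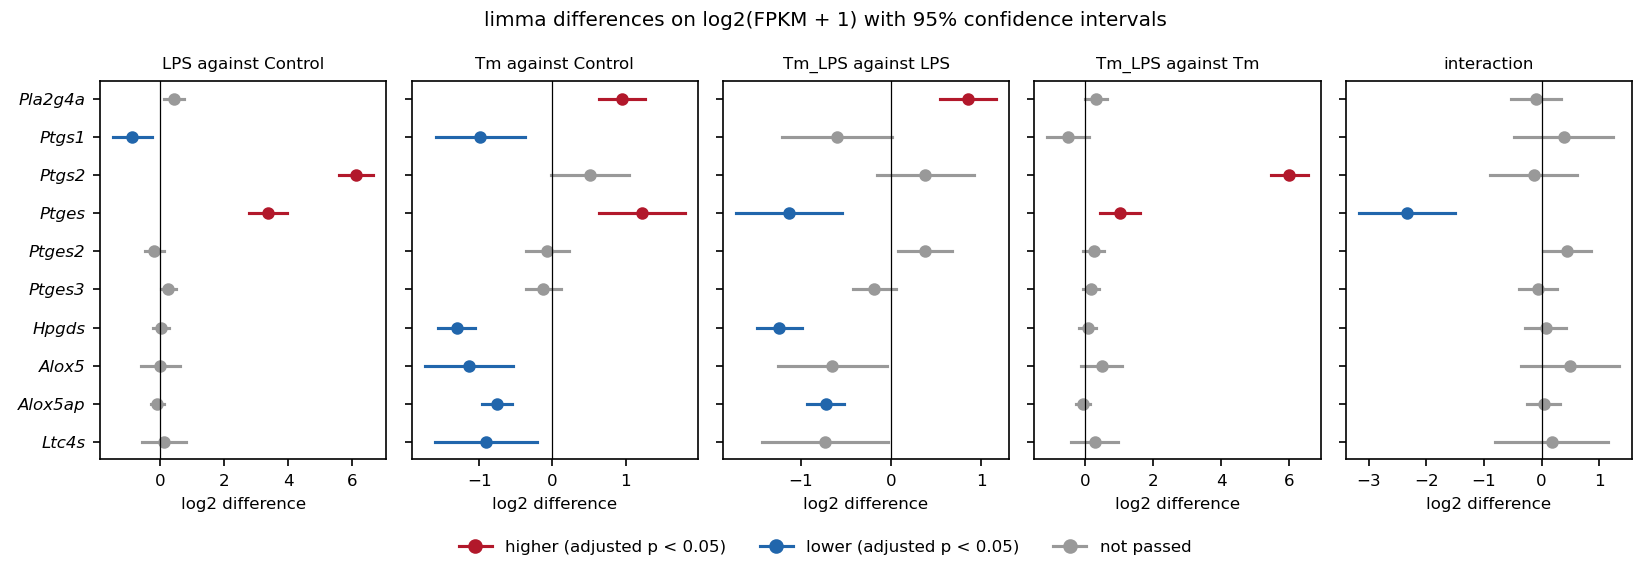
Each panel plots limma's log2 difference on log2(FPKM + 1) for the 10 genes with its 95% confidence interval in 1 comparison, and colours mark genes that passed at an adjusted p under 0.05 as higher or lower. Ptgs2 and Ptges lie to the right with LPS alone, 5 genes lie to the left with tunicamycin alone, and Ptges alone is coloured in the interaction.

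Pla2g4a encodes the calcium-dependent cytosolic phospholipase that frees arachidonic acid (mm10 chromosome 1, 149829618 to 149961290, minus strand). It stood at 39.2, 46.8 and 35.7 FPKM in Tm_LPS, 28.0, 36.3 and 32.0 in Tm, 18.7, 25.6 and 22.0 in LPS and 16.1, 15.3 and 16.8 in Control libraries. All 6 libraries with tunicamycin were above all 6 without it, and Tm and Tm_LPS overlapped. Tunicamycin alone raised it 1.93-fold (log2 0.95 ± 0.15, adjusted p = 1.14e-04), and Tm_LPS was 1.80-fold higher than LPS (log2 0.85 ± 0.15, adjusted p = 4.04e-04). The LPS effect did not pass, although the libraries did not overlap. It was log2 0.42 ± 0.15 with a 95% confidence interval of 0.112 to 0.735 and an adjusted p of 0.0566. That comparison passed without LPS replicate 1 (adjusted p = 0.03) and without Tm_LPS replicate 2 (0.0463). Tm was also higher than LPS (log2 0.52 ± 0.15, adjusted p = 0.0103), a call lost without LPS replicate 1 (0.0573) or Tm replicate 2 (0.0604). Ordered by mean, the groups ran Tm_LPS, Tm, LPS and Control, and the step from Tm to LPS was the 1 step between neighbours that passed.

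Ptgs2, the inducible cyclooxygenase (COX-2), lies on the same chromosome (150100031 to 150108227, plus strand), 138740 bp from Pla2g4a with no protein-coding gene annotated between them. It stood at 141.9, 162 and 157 FPKM in Tm_LPS, 0.923, 2.03 and 1.44 in Tm, 96.1, 113 and 151 in LPS and 1.16, 0.0509 and 1.16 in Control libraries. All 6 libraries with LPS were far above all 6 without it. LPS raised it 63.8-fold with tunicamycin (Tm_LPS against Tm, log2 6.00 ± 0.25, adjusted p = 2.17e-11) and 69.9-fold without it (log2 6.13 ± 0.25, adjusted p = 1.09e-11). The difference between these effects was log2 -0.13 ± 0.36, with a 95% confidence interval of -0.890 to 0.623 (adjusted p = 0.91). Tm_LPS and LPS overlapped, at a log2 difference of 0.38 ± 0.25 (95% confidence interval -0.158 to 0.912, adjusted p = 0.289). Tunicamycin alone gave log2 0.51 ± 0.25, which did not pass (adjusted p = 0.133). The antisense transcript Ptgs2os, which starts 68 bp from Ptgs2, was listed at 0 in all 12 libraries.

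Ptgs1, the constitutive cyclooxygenase (COX-1, chromosome 2, 36230426 to 36252272, plus strand), was far lower. It stood at 0.655, 0.447 and 0.125 FPKM in Tm_LPS, 1.24, 1.19 and 0.513 in Tm, 1.84, 0.525 and 1.17 in LPS and 4.00, 2.03 and 2.78 in Control libraries. The 3 Control libraries were above all 9 treated ones, and the treated groups overlapped. It was 2.77-fold lower in Tm_LPS than in Control (log2 -1.47 ± 0.29, adjusted p = 5.81e-04), 1.98-fold lower in Tm (log2 -0.98 ± 0.29, adjusted p = 0.0138) and 1.83-fold lower in LPS (log2 -0.87 ± 0.29, adjusted p = 0.0435). The LPS call was lost under 9 of 19 other settings. Among them were a pseudocount of 0.1 (adjusted p = 0.135), no filter (0.0754) and a fit to the compared groups alone (0.0629). The others left out Control replicate 1 (0.183) or 3 (0.0911), LPS replicate 2 (0.201) or 3 (0.0928), or Tm replicate 1 (0.0525) or 2 (0.0555). The tunicamycin call was lost with a pseudocount of 0.1 (0.0547), without Control replicate 1 (0.0693) and without Tm replicate 3 (0.0744).

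Set side by side, Ptgs2 made up 99.7 ± 0.19% of the summed FPKM of both cyclooxygenases in Tm_LPS, 59.8 ± 15.8% in Tm, 99.0 ± 0.746% in LPS and 18.1 ± 14.0% in Control libraries. The summed level was 154 ± 10.2, 2.44 ± 0.679, 121 ± 27.8 and 3.73 ± 1.55 FPKM in these groups. The share was thus higher in Tm than in Control at a total of no more than a few FPKM, with each Tm library above each Control library (42.6%, 63.0% and 73.7% in Tm, against 22.5%, 2.44% and 29.4% in Control). An exact two-sided permutation test gave p = 0.1 for each comparison between groups, the smallest that 3 against 3 libraries allow.

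**Figure D2:**
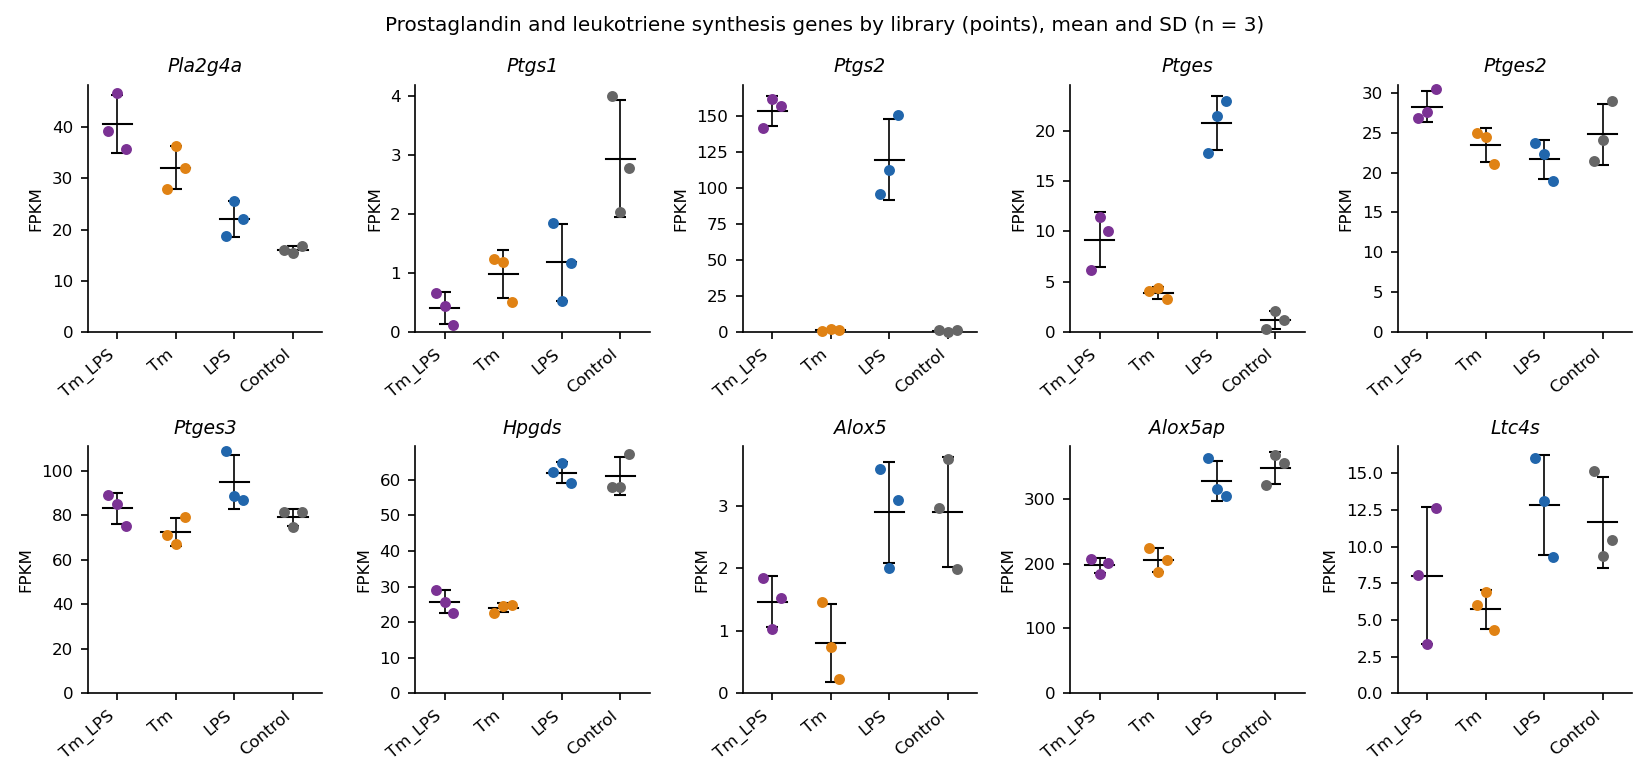
Points are FPKM in single libraries for each of the 10 genes, with the mean (horizontal line) and SD (bars, n = 3) per group on a linear axis from 0. Ptgs2 and Ptges are high with LPS, Hpgds and Alox5ap are low in both groups with tunicamycin, and Pla2g4a is high in both.

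Ptges encodes the inducible microsomal prostaglandin E synthase (chromosome 2, 30889471 to 30929863, minus strand), which works downstream of COX-2. It stood at 6.12, 11.4 and 10.0 FPKM in Tm_LPS, 4.02, 4.34 and 3.23 in Tm, 17.8, 21.5 and 23.0 in LPS and 0.340, 2.07 and 1.20 in Control libraries. No library of any group overlapped another group, in the order LPS, Tm_LPS, Tm and Control. LPS alone raised Ptges 10.4-fold (log2 3.38 ± 0.28, adjusted p = 8.6e-08) and tunicamycin alone 2.32-fold (log2 1.22 ± 0.28, adjusted p = 0.00281). With both agents it was 2.19-fold lower than with LPS (log2 -1.13 ± 0.28, adjusted p = 0.00605) and 4.75-fold higher than in Control (log2 2.25 ± 0.28, adjusted p = 6.57e-06). Tm_LPS was 2.05-fold higher than Tm (log2 1.03 ± 0.28, adjusted p = 0.0176). That last call was lost with a pseudocount of 0.1 (adjusted p = 0.0793), with no filter (0.0613), and without Tm replicate 3 (0.0709), Tm_LPS replicate 2 (0.0687) or Tm_LPS replicate 3 (0.061).

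The LPS effect on Ptges with tunicamycin was log2 2.34 ± 0.39 smaller than without it (interaction log2 -2.34, 95% confidence interval -3.175 to -1.513, adjusted p = 0.0018). By size this interaction ranked 44 of 10311 genes. It passed in all 19 other settings run, with log2 values of -3.08 to -2.03 and adjusted p of 6.42e-04 to 0.0226. Ptgs2 and Ptges, which work in sequence, thus had LPS effects of log2 6.00 and 1.03 with tunicamycin, and of log2 6.13 and 3.38 without it.

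**Figure D3:**
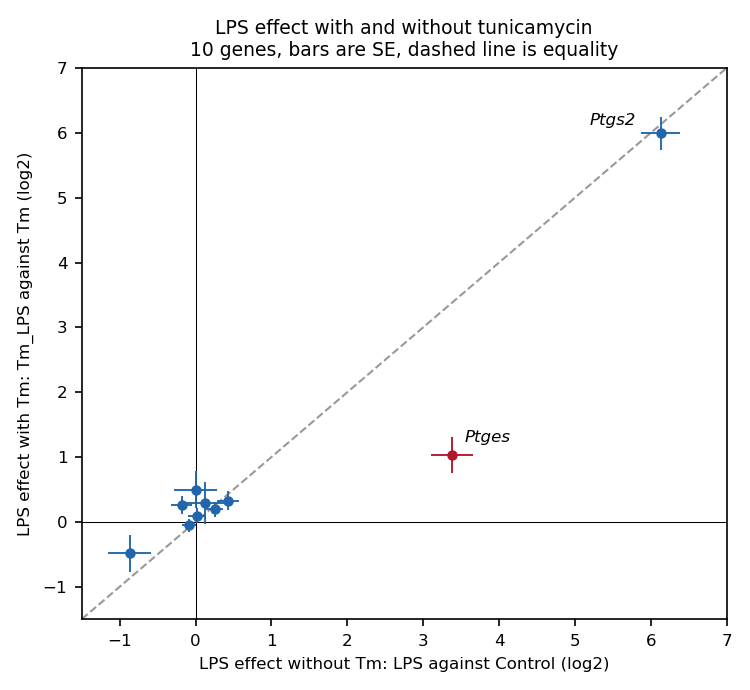
The LPS effect with tunicamycin (Tm_LPS against Tm, vertical axis) is plotted against the LPS effect without it (LPS against Control, horizontal axis), both as log2 differences with SE bars, and the dashed line marks equality. Ptgs2 lies near the line at about log2 6 on both axes, and Ptges (red) lies below it at 3.38 and 1.03.

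The other prostaglandin E synthases gave smaller differences. Ptges2, a membrane-associated synthase (chromosome 2, 32395896 to 32405772, plus strand), averaged 28.3 ± 1.94 FPKM in Tm_LPS, 23.5 ± 2.13 in Tm, 21.6 ± 2.41 in LPS and 24.8 ± 3.82 in Control libraries. The Tm_LPS and LPS libraries did not overlap, but the difference did not pass (log2 0.37 ± 0.14, 95% confidence interval 0.076 to 0.672, adjusted p = 0.0562); with a filter at 5 FPKM it did (0.0471). Ptges3, the cytosolic synthase that is also the HSP90 co-chaperone p23 (chromosome 10, 128058954 to 128077272, plus strand), averaged 83.1 ± 7.15, 72.6 ± 6.19, 94.9 ± 12.3 and 79.1 ± 3.79 FPKM in these groups. It passed only in Tm against LPS, 1.30-fold lower in Tm (log2 -0.38 ± 0.11, adjusted p = 0.0134). That call was lost with quantile normalization (0.281), without LPS replicate 1 (0.0796) and without Tm replicate 2 (0.0657). GENCODE M21 lists a processed pseudogene of Ptges3 that has no row in the table, and the labels do not say how its reads were counted. Ptges made up 7.62 ± 2.27% of the summed FPKM of the 3 synthase genes in Tm_LPS, 3.88 ± 0.708% in Tm, 15.3 ± 3.11% in LPS and 1.15 ± 0.862% in Control libraries. Ptges3 was thus the most abundant of the 3 in every group mean.

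Hpgds encodes the hematopoietic prostaglandin D synthase (chromosome 6, 65117293 to 65144908, minus strand). It stood at 29.0, 25.7 and 22.7 FPKM in Tm_LPS, 22.6, 24.6 and 24.9 in Tm, 62.1, 64.8 and 59.0 in LPS and 57.9, 57.9 and 67.2 in Control libraries. The 6 libraries with tunicamycin were all below the 6 without it. Hpgds fell 2.47-fold with tunicamycin alone (log2 -1.31 ± 0.12, adjusted p = 3.48e-07) and was 2.36-fold lower in Tm_LPS than in LPS (log2 -1.24 ± 0.12, adjusted p = 9.91e-07). LPS alone gave log2 0.02 ± 0.12, with a 95% confidence interval of -0.225 to 0.273 (adjusted p = 0.928), and Tm_LPS against Tm gave log2 0.09 ± 0.12 (adjusted p = 0.659). The interaction was log2 0.07 with a 95% confidence interval of -0.282 to 0.422. None of these calls changed in any setting run. Hpgds is also a known product of mast cells. The mast cell markers Cpa3, Cma1, Mcpt4 and Ms4a2 were at 0 in all 12 libraries, and the 8 mast cell markers summed to at most 0.871 FPKM in any library.

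On the leukotriene branch, Alox5ap encodes FLAP, the membrane protein that presents arachidonic acid to 5-lipoxygenase (chromosome 5, 149264767 to 149288153, plus strand). It was the most abundant of the 10 genes in each group. It stood at 207, 184.5 and 201.5 FPKM in Tm_LPS, 224.5, 186 and 206.0 in Tm, 363, 314.5 and 304 in LPS and 321, 368 and 354 in Control libraries. All 6 libraries with tunicamycin were below all 6 without it. The gene fell 1.69-fold with tunicamycin alone (log2 -0.76 ± 0.10, adjusted p = 1.76e-05), and Tm_LPS was 1.65-fold lower than LPS (log2 -0.72 ± 0.10, adjusted p = 3.71e-05). LPS alone gave log2 -0.09 ± 0.10 (adjusted p = 0.612). Quantile normalization moved calls of this abundant gene: with it LPS was lower than Control (log2 -0.28, adjusted p = 0.0218), Tm_LPS was lower than Tm (log2 -0.32, adjusted p = 0.0122), and Tm against LPS, at log2 -0.67 otherwise, did not pass (log2 -0.16, adjusted p = 0.135).

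Alox5, which encodes 5-lipoxygenase itself (chromosome 6, 116410077 to 116461178, minus strand), was near the lower limit of the genes tested. It stood at 1.85, 1.03 and 1.52 FPKM in Tm_LPS, 1.46, 0.741 and 0.223 in Tm, 3.58, 2.01 and 3.09 in LPS and 2.96, 3.74 and 1.99 in Control libraries. As with Alox5ap, the libraries with and without tunicamycin did not overlap. Alox5 fell 2.21-fold with tunicamycin alone (log2 -1.14 ± 0.28, adjusted p = 0.00521). It did not pass in Tm_LPS against LPS (log2 -0.65 ± 0.28, adjusted p = 0.1) or in Tm_LPS against Control (log2 -0.65 ± 0.28, adjusted p = 0.0801). LPS alone gave log2 0.00 ± 0.28 (adjusted p = 0.998). In group means Alox5ap was present at 197.5 ± 11.6 FPKM in Tm_LPS, 205.6 ± 19.1 in Tm, 327 ± 31.3 in LPS and 347.5 ± 24.3 in Control libraries, while Alox5 was at 1.47 ± 0.413, 0.808 ± 0.620, 2.90 ± 0.805 and 2.90 ± 0.877 FPKM.

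Ltc4s, the synthase that joins glutathione to leukotriene A4 (chromosome 11, 50236461 to 50238616, minus strand), varied more between replicates. It stood at 8.07, 3.37 and 12.7 FPKM in Tm_LPS, 6.00, 6.90 and 4.30 in Tm, 16.1, 13.1 and 9.28 in LPS and 15.2, 9.35 and 10.5 in Control libraries. The 3 Tm libraries were below all LPS and Control libraries, while Tm_LPS overlapped each other group. It fell 1.87-fold with tunicamycin alone (log2 -0.90 ± 0.33, adjusted p = 0.0423). That call was lost under 9 of 20 other settings: with a pseudocount of 0.1 (adjusted p = 0.0513), with no filter (0.125), with no trend in the variance (0.0722), and without Control replicate 1 (0.155) or 3 (0.0662), LPS replicate 2 (0.0514), or Tm replicate 1 (0.0724), 2 (0.0525) or 3 (0.147). Tm_LPS against LPS gave log2 -0.73 ± 0.33 (adjusted p = 0.108) and against Control log2 -0.61 ± 0.33 (adjusted p = 0.152). Both passed without Tm_LPS replicate 3 (0.0177 and 0.0216). In Tm against LPS, Ltc4s was 2.04-fold lower (log2 -1.03 ± 0.33, adjusted p = 0.021), a call lost with no filter (0.0776) and without LPS replicate 1 (0.0896) or 2 (0.0575) or Tm replicate 3 (0.083).

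Granulocytes also carry the leukotriene genes, so their markers are given beside these falls. The 7 neutrophil markers in the table summed to 17.1 to 31.7 FPKM in Tm_LPS, 14.3 to 25.8 in Tm, 190 to 316 in LPS and 86.7 to 126 in Control libraries. Of the 5 that were tested, 3 fell with tunicamycin alone, 4 were lower in Tm_LPS than in LPS, and 3 rose with LPS alone. Over all tested genes the shares passing in these directions were 16.6%, 15.1% and 10.5%. With LPS alone, Alox5 (log2 0.00), Alox5ap (log2 -0.09) and Ltc4s (log2 0.12) did not pass. The 6 eosinophil and basophil markers summed to 0.982 to 1.74 FPKM in Tm_LPS, 0.185 to 0.692 in Tm, 6.21 to 6.67 in LPS and 2.94 to 3.60 in Control libraries. Ccr3, the only 1 of them tested, averaged 1.41, 0.215, 5.70 and 2.76 FPKM in these groups. Prg2, Siglecf and Mcpt8 each averaged at most 0.435 FPKM in any group, and Epx and Il5ra were at 0 in all 12 libraries. The part of granulocytes in the falls of Alox5, Alox5ap and Ltc4s was not tested. The 6 stromal markers, from cells that can also express Ptgs1 and Ptges, summed to 16.5 to 44.5 FPKM in Tm_LPS, 19.9 to 38.3 in Tm, 8.17 to 14.1 in LPS and 7.98 to 10.1 in Control libraries; their part in the rise of Ptges with tunicamycin was not tested.

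Ordered by mean FPKM over all 12 libraries, the 10 genes ran from Alox5ap (269 FPKM, above 96.8% of tested genes) through Ptges3 (82.4), Ptgs2 (69.0), Hpgds (43.2), Pla2g4a (27.7), Ptges2 (24.6), Ltc4s (9.56), Ptges (8.75) and Alox5 (2.02) to Ptgs1 (1.38 FPKM, above 8.84%). Ptgs1 reached 1 FPKM in 7 libraries, Ptgs2 and Alox5 in 10 and Ptges in 11, and the other 6 genes in all 12. Over the 12 libraries, which share group means, log2(FPKM + 1) of Hpgds and Alox5ap ran together (Pearson's r = 0.949). That of Pla2g4a ran against both (r = -0.84 with Hpgds and -0.942 with Alox5ap). Ptgs2 and Ptges had r = 0.847. Among all tested genes, the pattern most like that of Ptgs2 was shown by Tnfaip3 (r = 0.996) and Tnf (0.991), and that of Ptges by Dtx3l (0.98) and Zufsp (0.976). Hpgds was most like Tubb2a (0.991) and Gm14295 (0.99), Alox5ap most like Elovl1 (0.99) and Uqcrh (0.982), and Pla2g4a most like Eif1a (0.974) and Ddx42 (0.973). The low or nearly level genes had weaker matches, down to r = 0.854 between Ptges2 and Isyna1.

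Upstream and downstream of these 10 genes, 6 further lists held 104 genes of the pathway, of which 101 were in the table and 60 were tested. With tunicamycin alone 12 of the 60 rose and 24 fell, and with LPS alone 9 rose and 3 fell, beside the shares of 34.5% and 18.4% over all genes. In Tm_LPS against LPS 9 were higher and 15 lower, beside 13.8% higher and 15.1% lower over all genes. Of the 24 falls with tunicamycin, 12 were in the list of arachidonate release and remodelling (5 higher, 12 lower, 5 not passed of 22). They include the fatty acid desaturase genes Fads2 (log2 -1.17 ± 0.30, adjusted p = 0.00662) and Fads1 (log2 -1.04 ± 0.12, adjusted p = 5.54e-06), which act in the making of arachidonic acid. Fads1 averaged 16.7 ± 1.37 FPKM in Tm_LPS, 20.1 ± 0.804 in Tm, 29.6 ± 0.845 in LPS and 42.4 ± 3.66 in Control libraries. Pnpla8, a calcium-independent phospholipase gene, rose like Pla2g4a (log2 0.97 ± 0.16, adjusted p = 1.95e-04). With LPS, Acsl1, which activates fatty acids with coenzyme A, rose (log2 1.20 ± 0.14, adjusted p = 9.01e-06) and so did Lpcat1, which re-esterifies lysophospholipids (log2 0.82 ± 0.18, adjusted p = 0.0046).

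**Figure D4:**
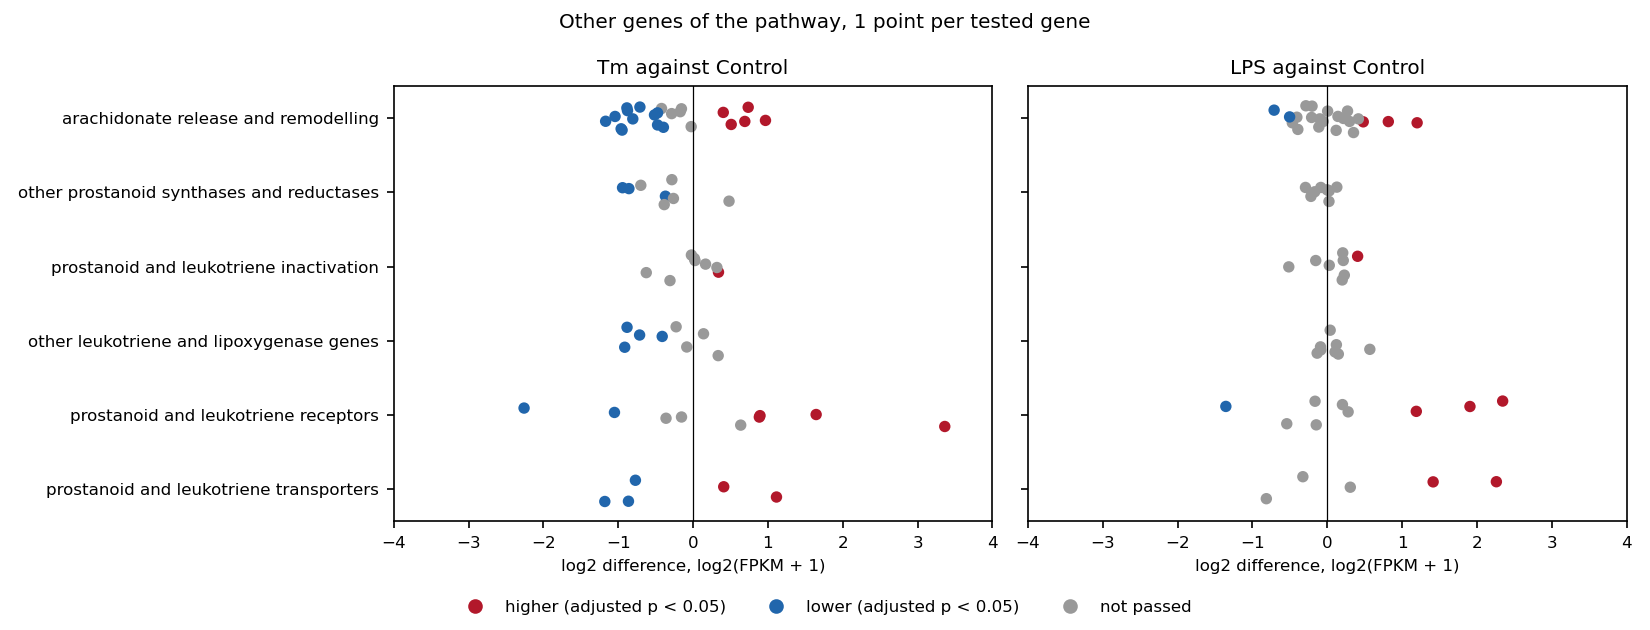
Each point is 1 tested gene of 6 further lists of the pathway, placed by its log2 difference on log2(FPKM + 1) in Tm against Control (left) and LPS against Control (right) and coloured by whether it passed at an adjusted p under 0.05. In arachidonate release and remodelling 12 of 22 genes were lower with tunicamycin, and in both panels the widest spread was among the receptors.

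With LPS, 0 of 8 tested other prostanoid synthases and reductases passed in limma, with 0 at an unadjusted p under 0.05 as well, and 0 of 8 other leukotriene and lipoxygenase genes passed, with 1 at an unadjusted p under 0.05. Of 8 tested inactivating enzymes Ptgr1, a leukotriene B4 and prostaglandin reductase, was the single one past the threshold. It was higher with LPS (log2 0.41 ± 0.13, adjusted p = 0.0337) and with tunicamycin (log2 0.34 ± 0.13, adjusted p = 0.0473). These calls were lost under 6 and 13 of 20 other settings. The share of all tested genes passing was 34.5% with tunicamycin and 18.4% with LPS. In lists of 8 genes, 0 or 1 passing with LPS is near the latter. With tunicamycin 3 of the 8 synthases and reductases passed, all lower, a share of 37.5% that is near the 34.5% of all genes. These were Cbr2 (log2 -0.94 ± 0.18) and Akr1b8 (log2 -0.86 ± 0.17), both reductases, and Tbxas1, the thromboxane synthase (log2 -0.37 ± 0.12, adjusted p = 0.0246). The Tbxas1 call was lost with quantile normalization, with no trend in the variance, and without Control replicate 3 (0.104), Tm replicate 1 (0.0709) or Tm replicate 2 (0.0674). Of 8 other leukotriene and lipoxygenase genes 4 were lower with tunicamycin, where 16.6% of all genes were. They include Mgst2 (log2 -0.91 ± 0.26, adjusted p = 0.0111), which can also conjugate leukotriene A4, and Cotl1, a 5-lipoxygenase partner (log2 -0.71 ± 0.22, adjusted p = 0.0167). Mgst2 was lost without Control replicate 1 (0.0534), and Cotl1 without Control replicate 2 (0.056) and with no filter (0.0729). Alox12b, Alox12e and Ptgds were listed at 0 in all 12 libraries.

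Among these lists, the largest log2 difference was that of a receptor gene in Tm against Control (Ptgir) and in LPS against Control (Ptafr), while in Tm against LPS and in Tm_LPS against Tm it was that of the transporter gene Slco4a1. Ptgir, the prostacyclin receptor, stood at 51.8, 45.8 and 39.5 FPKM in Tm_LPS, 53.8, 55.9 and 54.5 in Tm, 13.1, 10.2 and 10.9 in LPS and 4.97, 4.07 and 4.25 in Control libraries. It rose 10.3-fold with tunicamycin alone (log2 3.36 ± 0.14, adjusted p = 4.66e-11) and was 3.76-fold higher in Tm_LPS than in LPS (log2 1.91 ± 0.14, adjusted p = 6.37e-08). Ptger4, the prostaglandin E2 receptor EP4, went the other way. It stood at 2.53, 3.96 and 4.55 FPKM in Tm_LPS, 0.447, 0.688 and 1.28 in Tm, 5.91, 8.51 and 5.60 in LPS and 8.92, 6.18 and 7.58 in Control libraries. It fell 4.78-fold with tunicamycin alone (log2 -2.26 ± 0.25, adjusted p = 3.52e-06) and was 2.59-fold higher in Tm_LPS than in Tm (log2 1.37 ± 0.25, adjusted p = 9.95e-04). Ptger2, the EP2 receptor, averaged 10.7 ± 2.74 FPKM in Tm_LPS, 7.29 ± 1.57 in Tm, 4.13 ± 0.981 in LPS and 3.43 ± 0.581 in Control libraries, and was higher in Tm_LPS than in LPS (log2 1.18 ± 0.23, adjusted p = 0.00108). Ptafr, the receptor of platelet-activating factor, averaged 36.5 ± 3.39, 28.7 ± 1.46, 47.3 ± 4.08 and 9.22 ± 4.78 FPKM in these groups, and rose with each agent alone (log2 1.65 ± 0.23 with tunicamycin and 2.34 ± 0.23 with LPS).

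Of 9 tested receptor genes 4 passed the interaction, where 3.37% of all genes did. In each of the other further lists 0 genes passed it, so that 4 of the 60 tested genes of the 6 lists passed (6.67%). The LPS effect was smaller with tunicamycin for Ptafr (interaction log2 -2.01 ± 0.33, adjusted p = 0.00133) and Ptgir (log2 -1.45 ± 0.20, adjusted p = 3.94e-04), and both passed in all 19 other settings run. It was greater for Ptger4 (log2 1.54 ± 0.35, adjusted p = 0.0218). That call was lost with no filter (0.069) and without Control replicate 1 (0.0629), LPS replicate 1 (0.0596) or 3 (0.0615), Tm replicate 2 (0.0567) or Tm_LPS replicate 3 (0.0555). Pparg, a nuclear receptor gene named after its values were seen, averaged 13.01 ± 2.39 FPKM in Tm_LPS, 14.9 ± 3.93 in Tm, 11.9 ± 3.12 in LPS and 31.4 ± 2.09 in Control libraries. Its interaction (log2 1.19 ± 0.28, adjusted p = 0.0265) was lost under 9 of 19 other settings, with adjusted p up to 0.0862: with no filter, with no trend in the variance, and without Control replicate 2 (0.0618) or 3 (0.0579), LPS replicate 1 (0.0732) or 2 (0.0711), Tm replicate 1 (0.055) or 3 (0.0818) or Tm_LPS replicate 3 (0.072). Ptger4 was also lower in Tm_LPS than in LPS (log2 -0.72 ± 0.25, adjusted p = 0.0396), a call lost without LPS replicate 1 (0.0623) or 2 (0.166) or Tm_LPS replicate 1 (0.158) or 2 (0.0555), and in 3 other settings.

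**Figure D5:**
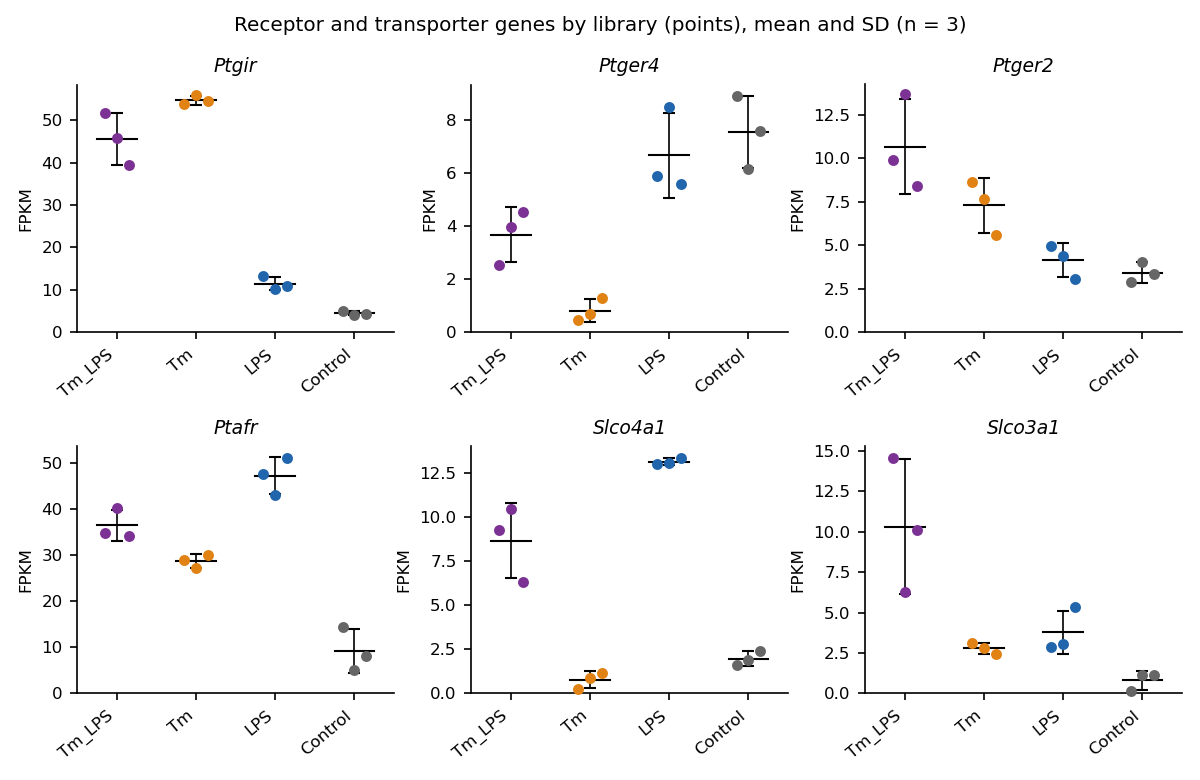
Points are FPKM in single libraries for 4 receptor and 2 transporter genes, with the mean (horizontal line) and SD (bars, n = 3) per group on a linear axis from 0. Ptgir is high and Ptger4 low in Tm, the transporter gene Slco4a1 is high in Tm_LPS and LPS and highest in LPS, and Slco3a1 is highest in Tm_LPS.

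Transporter genes also changed, with 2 higher and 3 lower of 5 tested with tunicamycin, where 34.5% of all genes passed, and 2 higher with LPS, where 10.5% of all genes were. Slco4a1, an organic anion transporter gene, averaged 8.66 ± 2.12 FPKM in Tm_LPS, 0.778 ± 0.471 in Tm, 13.1 ± 0.202 in LPS and 1.97 ± 0.405 in Control libraries. It was 4.79-fold higher in LPS than in Control (log2 2.26 ± 0.24, adjusted p = 2.05e-06). Slco3a1, of the same family, averaged 10.3 ± 4.16, 2.79 ± 0.324, 3.77 ± 1.35 and 0.820 ± 0.587 FPKM in these groups. It was higher than Control with LPS (log2 1.41 ± 0.31, adjusted p = 0.00339) and with tunicamycin (log2 1.12 ± 0.31, adjusted p = 0.0102), the second call being lost without Control replicate 1 (0.0585). Abcc4, an exporter of prostaglandins, was lower with tunicamycin (log2 -0.86 ± 0.25, adjusted p = 0.0129).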

How the data were processed

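RNA was measured in 12 libraries of mouse bone-marrow-derived macrophages, 3 in each of 4 groups taken from the labels. The values are the authors' deposited FPKM, with 1 row per symbol. The submitters' processing notes name mm10 and the tools Cufflinks 2.2.1, TopHat2 2.0.13, SAMtools 0.1.19 and Bowtie2 2.2.3; the annotation and strand setting are not given there. Read depth is unknown: 7.07% to 19% of genes below 0.3 FPKM lay within log2 0.02 of a shared ratio between libraries, so no counts were recovered, and precision is the spread between replicates. No 2 libraries were identical.

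Tests used limma 3.58.1 under R 4.3.3 (lmFit, then eBayes with its trend option) on log2(FPKM + 1), for genes that reached 1 FPKM in 3 or more libraries. The 12 libraries entered 1 fit of 4 group means (8 residual degrees of freedom), from which 7 comparisons were drawn. Benjamini-Hochberg adjustment ran over all 10311 genes, with a threshold of 0.05. The method was tested on simulated data. Gene positions are from GENCODE M21, and promoters from RefSeq. Figures were drawn with matplotlib 3.10.9.

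The 10 genes, the 6 further lists and the cell type markers were chosen with earlier results of these data known. Named were all 10 genes, up to 3 passing genes of each further list with the largest change per comparison, and for each of the 10 the 2 genes with the highest Pearson correlation over the 12 libraries. Some genes that meet this rule are left out for length. Alternatives were quantile normalization, median-of-ratios scaling, a 5 FPKM filter, no filter, a pseudocount of 0.1, a fit to the compared groups alone, no trend, the replicate number as a block, and leaving out each library in turn. Same-numbered libraries of different groups had deviations from their group means that correlated at -0.039 to 0.095.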

Additional observations from a re-analysis of the deposited data

Results flagged for a closer look

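The LPS effect differed with and without tunicamycin, by the limma interaction test, for 1 of the 10 genes and for 4 of 9 tested receptor genes. In each of the other further lists 0 genes passed, which made 6.67% of the 60 tested genes of the 6 lists. Over all tested genes 3.37% passed. For Ptges the interaction was log2 -2.34, with LPS effects of log2 1.03 with tunicamycin and 3.38 without it. For Ptafr it was log2 -2.01, with LPS effects of log2 0.33 (not passed) with tunicamycin and 2.34 without it. For Ptgir it was log2 -1.45, with LPS effects of log2 -0.26 (not passed) with tunicamycin and 1.19 without it. For Ptger4 it was log2 1.54, with LPS effects of log2 1.37 with tunicamycin and -0.16 (not passed) without it. For Pparg it was log2 1.19, with LPS effects of log2 -0.17 (not passed) with tunicamycin and -1.36 without it. The fall of Pparg with LPS was thus smaller with tunicamycin. With 1 library left out in turn, the calls of Ptges, Ptafr and Ptgir held, while those of Ptger4 and Pparg were each lost without some of the libraries. The tunicamycin time of the Tm group is not stated, so its part in these differences cannot be told apart from that of LPS.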

How the results depend on the processing

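Of the comparisons of the 10 genes under other settings, 1376 in all, 1332 stayed on their side of the threshold. In the rest 36 calls were lost and 8 gained, and no passing call turned direction. Differences that did not pass could change sign, as for Alox5 in LPS against Control (log2 -0.176 to 0.177). The lost and gained calls are given beside each gene or in the next paragraph, and the cause was not tested. Of 310 repeated counts and shares, 302 stayed within 1.5 times or the spread between replicates. In Tm_LPS against Tm, 2 of the 10 genes passed as reported, and 1 with a pseudocount of 0.1 or with no filter. With quantile normalization 2 passed as higher and 1 as lower, and 1 to 2 passed when 1 library was left out. Over all genes that comparison passed 1618, and 1064 to 1652 with 1 library left out, the lowest without Tm replicate 2. Tm against LPS passed 5 to 8 of the 10 genes. The interaction passed 347 genes, and 229 to 353 with 1 library left out, the lowest without Tm replicate 3. Quantile normalization moved the share of higher genes among those passing in Tm_LPS against Tm to 44.9%, against 55.4% as reported, in LPS against Control to 48.0%, against 57.2%, in Tm against LPS to 53.5%, against 47.1%, and in Tm_LPS against Control to 44.1%, against 50.6%, so that the more frequent direction turned in 4 of the 7 comparisons.

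The groups share replicate numbers, whose meaning the labels do not give. With the replicate block, 4 of the 10 genes passed in LPS against Control, 7 in Tm against Control, 6 in Tm_LPS against Control, 4 in Tm_LPS against LPS, 2 in Tm_LPS against Tm, 8 in Tm against LPS and 1 in the interaction; Pla2g4a with LPS (adjusted p = 0.0441) was the call gained. Unknown depth limits most what can be said of Ptgs1 and Alox5, whose levels lie near 1 FPKM.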

Other observations

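Ptgs2os2, an antisense transcript of the Ptgs2 region named after its values were seen, was listed at 1.94, 2.32 and 0 FPKM in Tm_LPS, at 0 in all Tm, at 0.843, 1.53 and 1.78 in LPS and at 0 in all Control libraries. It was above 0 in 5 of the 6 libraries with LPS. Its limma result is not given here.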
